A study of Mus musculus with 4 samples.

Results

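The interferon regulatory factors (IRFs) are a family of transcription factors, and 8 of their genes, Irf1, Irf2, Irf3, Irf4, Irf5, Irf7, Irf8 and Irf9, were followed across the cell types of mouse bone marrow. They were found by their gene symbols, and they are 8 of the 31053 genes listed in the matrices, of which 20307 had at least 1 unique molecular identifier (UMI, a tag that marks 1 captured transcript) in a cell kept here. Bone marrow mononuclear cells (BMNCs) of 2 TLR9-/- mice and 2 WT mice on a C57BL6/J background were profiled by droplet single-cell RNA sequencing from the 5′ end of transcripts. TLR9-/- mice carry a disrupted Tlr9 allele in every cell, so that no cell type in them can serve as a Tlr9-competent control. Each mouse gave 1 library, so that n = 2 libraries per genotype, and the labels name no treatment. The mice were profiled in 2 experiments, each with 1 mouse of each genotype. The cells came from flushed femur and tibia marrow and were collected on Ficoll. The genotypes were housed apart, and age and sex of these mice are not given in the sources used here. The question for each gene was in which cell types it was expressed and whether its level differed between TLR9-/- and WT cells of the same type.

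IRFs bind DNA with a domain that reads a GAAA core, the letters that recur in interferon-stimulated response elements. IRF3, IRF5 and IRF7 are kept inactive until pattern receptors signal, and TLR9, which senses CpG DNA in endosomes, signals through MyD88 to IRF7 in plasmacytoid dendritic cells and to IRF5. IRF9 is the DNA-binding part of the complex that answers type I interferon, IRF1 and IRF2 bind the same sites as activator and antagonist, and IRF4 and IRF8 act with partners such as PU.1 to direct B cell, dendritic cell and monocyte development. IRF activity is in part set by phosphorylation, which transcript counts do not show.

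Of 40545 cells in the files, 39167 were kept, 8895 to 10781 per library, and they held between 31210188 and 63958243 UMIs per library, with TLR9-/- libraries deeper than WT libraries. Cells were clustered without the members among the variable genes, and 18 classes were named from marker genes, each name standing for cells that resemble the type. Between 112 and 185 cell barcodes were shared by any pair of libraries. Over all cells, 41 and 48 UMIs of the disrupted Tlr9 were counted in TLR9-/- libraries 1 and 2 and 120 and 97 in WT libraries 1 and 2. Its log2 fold change was −1.98 (standard error 0.35), which did not pass the threshold in edgeR's quasi-likelihood test with Benjamini-Hochberg adjustment (adjusted p = 0.117). The adjusted p went from 0.000937 to 0.304 over the 9 alternatives. Both TLR9-/- libraries were below both WT libraries, but TLR9-/- cells were not free of Tlr9 UMIs. In plasmacytoid dendritic cells Tlr9 UMIs numbered 6 and 16 in TLR9-/- libraries and 48 and 16 in WT libraries, which differ in depth. Scaled to the same total of UMIs in every library (CPM), Tlr9 was there at 3.78 and 7.8 against 26.9 and 15.3 CPM. Both TLR9-/- libraries were thus below both WT libraries in this class too.

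WT library 1 stood apart from the other 3 libraries in the genes that type I interferon induces. The summed level of 25 interferon-stimulated genes was highest in WT library 1 in all 18 classes. Over all cells the sum was 1286 and 1363 CPM (UMIs scaled to the same total in every library) in TLR9-/- libraries 1 and 2, 3181 in WT library 1 and 1075 in WT library 2. For this sum the WT mice differed more from each other than either did from a TLR9-/- mouse. Because Irf7 and Irf9 are themselves induced by interferon, their values are given with and without WT library 1.

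By the GENCODE vM21 annotation of GRCm38, Irf1 lies on chromosome 11 (53770014 to 53778374, plus strand), Irf2 on chromosome 8 (46739732 to 46847458, plus), Irf3 on chromosome 7 (44997648 to 45002848, plus) and Irf4 on chromosome 13 (30749226 to 30766976, plus). Irf5 lies on chromosome 6 (29526625 to 29541871, plus), Irf7 on chromosome 7 (141262706 to 141266481, minus), Irf8 on chromosome 8 (120736358 to 120756694, plus) and Irf9 on chromosome 14 (55603571 to 55610030, plus). Irf1 overlaps Gm17334, Irf2 overlaps Gm45479, Gm31172 and Gm45481, Irf3 overlaps Bcl2l12, Irf5 overlaps Tnpo3 and Irf7 overlaps Phrf1, all on the opposite strand, and Irf8 overlaps Gm20388 and Irf9 overlaps Rnf31 on the same strand. Whether the counting used strand is not given in the sources used here, so how reads in the shared stretches were assigned is not known.

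The promoters of the 8 genes were read from RefSeq's tables on GRCm38.p6, from 250 bases before to 50 bases after each start, which gave 11 promoters for the 8 members. They were searched on both strands for TTCNNNGAA, the gamma-activated sequence through which interferon gamma acts on its targets, which was in 8.3% of 32851 promoters of the same length. The 3 promoters that held a match are shown, with the matched letters in capitals, because they belong to Irf1, Irf2 and Irf8, which are among the genes followed here.
Irf1 promoter, chr11:53769764-53770063, + strand: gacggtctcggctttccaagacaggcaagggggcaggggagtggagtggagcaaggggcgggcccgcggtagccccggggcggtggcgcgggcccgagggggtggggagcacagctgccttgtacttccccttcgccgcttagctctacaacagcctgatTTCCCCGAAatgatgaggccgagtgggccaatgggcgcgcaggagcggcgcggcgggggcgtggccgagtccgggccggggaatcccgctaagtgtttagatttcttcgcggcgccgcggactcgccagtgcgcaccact
Irf2 promoter, chr8:46739495-46739794, + strand: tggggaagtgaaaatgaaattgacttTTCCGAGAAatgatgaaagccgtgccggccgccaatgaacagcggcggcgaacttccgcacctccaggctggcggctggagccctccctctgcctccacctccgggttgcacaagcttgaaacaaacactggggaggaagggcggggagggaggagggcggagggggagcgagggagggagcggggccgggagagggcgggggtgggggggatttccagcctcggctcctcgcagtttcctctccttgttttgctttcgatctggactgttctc
Irf8 promoter, chr8:120736108-120736407, + strand: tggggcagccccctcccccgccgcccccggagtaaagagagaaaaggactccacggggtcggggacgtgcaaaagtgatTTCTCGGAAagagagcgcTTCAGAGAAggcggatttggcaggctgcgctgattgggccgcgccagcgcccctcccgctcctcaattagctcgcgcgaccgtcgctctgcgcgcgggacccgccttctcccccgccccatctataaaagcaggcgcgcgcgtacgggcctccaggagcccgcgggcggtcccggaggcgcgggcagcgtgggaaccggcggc
The Irf1 promoter held 1 TTCNNNGAA match at position −90 from the start. The Irf2 promoter held 1 at −224, and the Irf8 promoter held 2, at −171 and −153. A match is a match of letters in this window only, and the windows of Irf3, Irf4, Irf5, Irf7 and Irf9 held none.

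IRF8 specifies dendritic cells and monocytes and restrains neutrophil development, and Irf8 was most abundant in dendritic cells. Levels are first given as CPM, the UMIs of the gene scaled to the same total of UMIs in every class and library, and they are compared between classes for 1 gene at a time. In plasmacytoid dendritic cells Irf8 was at 2457 and 3265 CPM in TLR9-/- libraries 1 and 2 and at 2297 and 2969 CPM in WT libraries 1 and 2. The mean was 2747 ± 449 CPM (SD, n = 4 libraries), above the range of every other class. Conventional dendritic cells came next with 1581 ± 390 CPM, and classical monocytes with 462 ± 66.3 CPM. These 3 classes were separated, in that each range over the 4 libraries lay above the next. Ms4a1+ B cells (373 ± 102 CPM), HSPCs (355 ± 40.8 CPM) and NK cells (353 ± 67.4 CPM) followed and could not be ordered, since their ranges overlapped. Classical monocytes, from 384 CPM, were not separated from Ms4a1+ B cells, which reached 480 CPM. Irf8 was lowest in mature neutrophils (29.9 ± 27.6 CPM), late erythroid cells (19.3 ± 3.11 CPM) and early erythroid cells (10.8 ± 5.18 CPM), and the highest class was 254 times the lowest.

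Granulocyte and monocyte precursors were at 220 ± 66.4 CPM. A finer clustering of all cells, whose clusters also took in cells from outside this class, held 2 clusters of precursors led by Prtn3, Mpo and other shared precursor genes. They are called Ly6c2+ precursors, after a monocyte antigen gene among the leading genes, and Elane+ precursors, after the neutrophil elastase gene, but Elane was also among the leading genes of the Ly6c2+ precursors. Irf8 was at 571, 636, 528 and 522 CPM in the Ly6c2+ precursors of TLR9-/- libraries 1 and 2 and WT libraries 1 and 2. In the Elane+ precursors of the same libraries it was at 86.3, 118, 107 and 65.3 CPM. Every library thus had more Irf8 in the Ly6c2+ than in the Elane+ precursors, with no overlap between them. Irf5 divided in the same way, with 48.7 ± 8.13 CPM in Ly6c2+ and 5.25 ± 1.71 CPM in Elane+ precursors. The Ly6c2+ precursors numbered 584, 386, 183 and 128 cells in TLR9-/- libraries 1 and 2 and WT libraries 1 and 2. The Elane+ precursors numbered 469, 582, 193 and 349 cells, so that the libraries held them in different proportions.

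IRF4 acts in B-cell precursors, where it promotes light chain rearrangement, and again in plasma cells. Irf4 was highest in Rag1+ B-cell precursors, the small cells that rearrange light chain genes, at 268 and 230 CPM for TLR9-/- and 268 and 244 CPM for WT. The spread over the 4 libraries was small, 252 ± 18.8 CPM. Cycling B-cell precursors followed with 152 ± 4.95 CPM, Ms4a1+ B cells with 80.8 ± 3.94 CPM, Vpreb1+ B-cell precursors with 55.9 ± 13.4 CPM and Ighd+ B cells with 39.1 ± 6.83 CPM. Each of the first 3 ranges lay above the next one, Vpreb1+ precursors and Ighd+ B cells overlapped, and Ighd+ B cells lay above every class outside the B lineage. Outside the B lineage the highest class was conventional dendritic cells at 17.4 ± 6.11 CPM, and mature neutrophils were lowest at 0.867 ± 1.03 CPM. Plasma cells, separate only in the finer clustering and with 20 to 51 cells per library, were at 88.8, 165, 117 and 212 CPM.

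Irf8 and Irf4 thus ran differently along the B lineage. Irf8 was at 113 ± 4.38 CPM in Vpreb1+ and 108 ± 17.02 CPM in cycling precursors, 165 ± 32.7 CPM in Rag1+ precursors, 373 ± 102 CPM in Ms4a1+ B cells and 255 ± 50.4 CPM in Ighd+ B cells. In each of the 4 libraries Irf4 peaked in Rag1+ precursors and Irf8 in Ms4a1+ B cells, 1 step later.

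**Figure D1:**
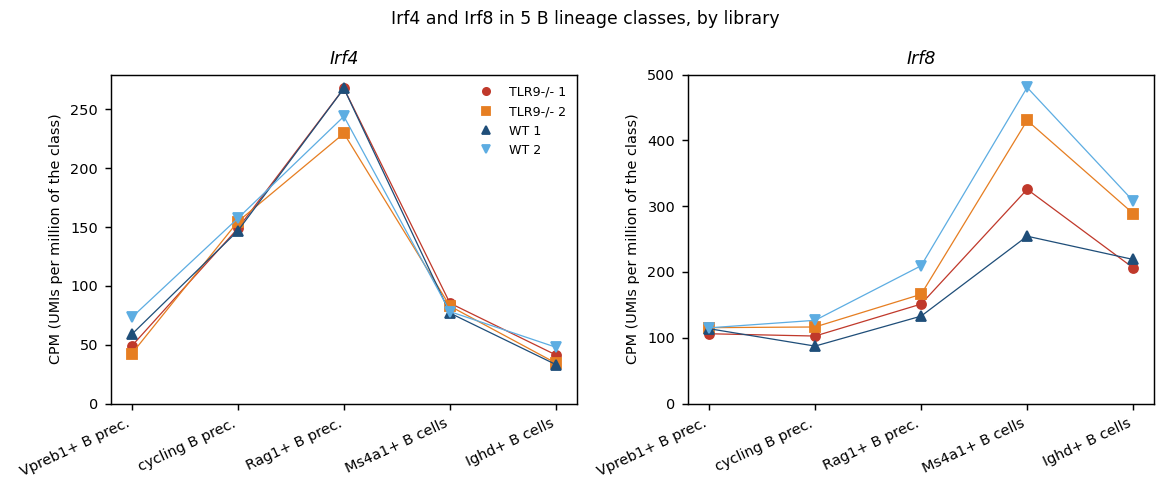
Irf4 (left) and Irf8 (right) in 5 B lineage classes, in CPM on a linear axis from 0, with 1 line and symbol per library. Irf4 peaks in Rag1+ precursors in all 4 libraries, at 230 to 268 CPM, and Irf8 peaks in Ms4a1+ B cells, at 254 to 480 CPM.

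IRF5 drives inflammatory cytokine genes downstream of MyD88. Irf5 was highest in classical monocytes, at 139 and 177 CPM for TLR9-/- and 130 and 122 CPM for WT (142 ± 24.6 CPM over the 4). Ms4a1+ B cells (105 ± 28.7 CPM), Ighd+ B cells (98.3 ± 22.4 CPM), conventional dendritic cells (94.97 ± 19.5 CPM) and plasmacytoid dendritic cells (76.0 ± 23.1 CPM) came next, each overlapping with its neighbour, and all 5 classes lay above Rag1+ precursors at 36.4 ± 12.4 CPM. Irf5 was thus highest in classical monocytes, dendritic cells and the 2 later B cell classes, and in early erythroid cells it was at 0.639 ± 0.612 CPM.

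IRF7 is the factor that amplifies type I interferon production, and plasmacytoid dendritic cells are known for storing it before any stimulus. Irf7 was highest in plasmacytoid dendritic cells, at 189 and 250.7 CPM in TLR9-/- cells and at 253 and 106 CPM in WT libraries 1 and 2. Conventional dendritic cells (81.7 ± 21.6 CPM), classical monocytes (66.4 ± 34.7 CPM), mature neutrophils (60.4 ± 22.7 CPM) and late erythroid cells (59.8 ± 31.8 CPM) came next. No neighbours in the order of Irf7 were separated, and the WT libraries lay far apart in most classes. The lowest class was cycling B-cell precursors with 2.41 ± 1.24 CPM.

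IRF3, which is present before infection and acts first, varied least between classes. Its highest class, Ms4a1+ B cells (77.0 ± 9.57 CPM), was 4.59 times its lowest, immature neutrophils (16.8 ± 4.31 CPM). The other B cells and B-cell precursors lay between 41.8 and 75.9 CPM on average. Mature neutrophils, at 16.8 ± 5.66 CPM, could not be told apart from immature ones.

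IRF9 carries interferon receptor signals to DNA, and its levels covered a range of 5.34 times between classes. Plasmacytoid dendritic cells (91.1 ± 15.3 CPM) and conventional dendritic cells (83.7 ± 14.6 CPM) were highest, and granulocyte and monocyte precursors (17.1 ± 4.65 CPM) were lowest. No neighbours were separated.

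IRF1, an activator induced by interferon gamma, was spread over plasmacytoid dendritic cells and lymphocytes. Irf1 was at 78.5 ± 14.03 CPM in plasmacytoid dendritic cells, 75.1 ± 10.0 CPM in T cells and 72.6 ± 24.3 CPM in NK cells, which overlapped. With marked doublets left out or with the finer clustering the highest class was T cells. Irf1 was near the floor in early erythroid cells, at 1.74 ± 1.03 CPM. IRF2, its antagonist, was highest in Ighd+ B cells at 137, 192, 120 and 141 CPM in TLR9-/- libraries 1 and 2 and WT libraries 1 and 2. Ms4a1+ B cells (128 ± 27.9 CPM) and Rag1+ precursors (118 ± 11.5 CPM) followed, and Rag1+ precursors were separated from the next class, mature neutrophils, at 87.9 ± 15.3 CPM. Irf2 was lowest in early erythroid cells (22.9 ± 3.49 CPM).

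**Figure D2:**
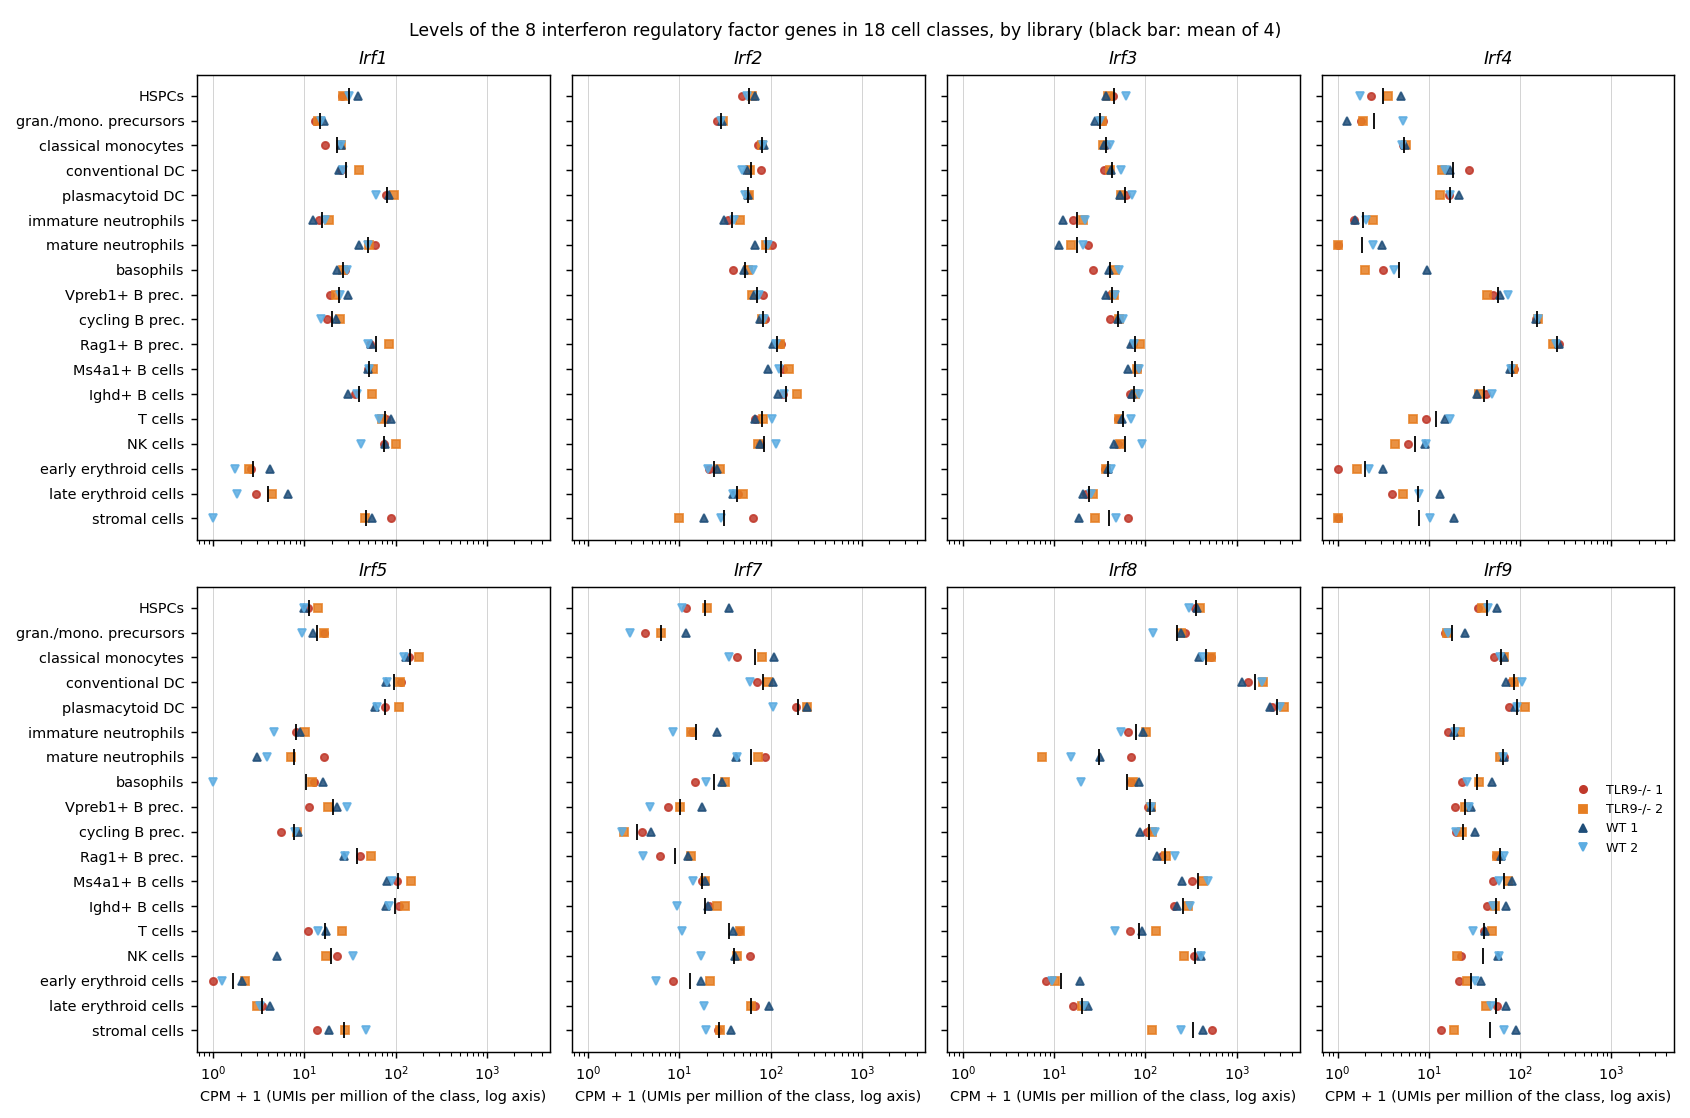
Level of each of the 8 genes (panels) in 18 cell classes (vertical axis), as CPM + 1 on a log axis, with 1 symbol per library and a black bar at the mean of the 4 libraries. Irf8 and Irf7 are highest in plasmacytoid dendritic cells, Irf4 in Rag1+ precursors and Irf5 in classical monocytes, whereas Irf3 and Irf9 span only 4.59 and 5.34 times between their highest and lowest class.

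The shares of cells with at least 1 UMI were compared after every cell was thinned to 1000 UMIs, which left out 466 to 2713 cells per library. Early erythroid cells, which should lack Irf4, Irf5 and Irf8, were taken as the background. They were also the deepest cells, with medians of 12914 to 22862 UMIs per library against 2018 to 3491 UMIs in plasmacytoid dendritic cells, 3131 to 4877 UMIs in classical monocytes and 865 to 1433 UMIs in Rag1+ precursors. The shallower late erythroid cells had more Irf4 (6.60 against 0.987 CPM) and Irf8 (19.3 against 10.8 CPM) on average. Whether the background is higher in shallower classes was not tested. After thinning, 91.6% of plasmacytoid dendritic cells had an Irf8 UMI (exact 95% binomial interval 90.4 to 92.7%, counting error only), and 0.940% of early erythroid cells did (0.379 to 1.93%). Before thinning the shares were 97.7% and 4.95%. Irf8 was thus found in nearly every plasmacytoid dendritic cell, in 61.1% of conventional dendritic cells and in 29.9% of classical monocytes. Irf4 was found in 21.3% of Rag1+ precursors (24.2% before thinning) and in 0 of 745 thinned early erythroid cells, which allows a share of cells with a UMI at this depth of up to 0.494% by the exact interval and sets no limit on cells that express the gene. Irf5 was found in 15.1% of classical monocytes (51.5% before thinning) and again in no thinned early erythroid cell. Irf7 was found in 17.5% of plasmacytoid dendritic cells and 1.88% of early erythroid cells, and in 34.2% and 14.8% before thinning. The Irf7 share of late erythroid cells, 7.01% after thinning, was above that of early erythroid cells.

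The genes whose class means ran most like those of a member were found by Pearson's correlation of log2(CPM + 10) over the 18 classes, among 5838 genes with a mean of at least 50 CPM in some class. These correlations describe the same 4 libraries and carry no test. Irf4 was closest to Bach2 (r = 0.97), a repressor that restrains plasma cell fate, and to Pou2af1 (0.95), a B cell coactivator. Irf5 was closest to Ctss (0.96), the protease that trims the invariant chain in antigen-presenting cells, and to Ly86 (0.91), a partner of the receptor RP105. Irf1 was closest to H2-D1 (0.93), a class I molecule, and to Clec2d (0.90), a ligand of NK receptors. For Irf8 the closest were Slc29a3 (0.92), a lysosomal nucleoside transporter, Itpr1 (0.92) and Pkib (0.91), all highest in plasmacytoid dendritic cells. Irf7 was closest to Pip4k2a (0.87), Irf2 to Ccm2 (0.89), Irf3 to Tigd2 (0.96) and Irf9 to Gpr137b (0.79). Between members the highest values were 0.78 for Irf5 with Irf8 and 0.75 for Irf7 with Irf9.

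In the main fit, which did not use the library number as a block, no member passed the threshold in a comparison of TLR9-/- with WT cells of the same class. Of 144 pairs of a member and a class, 123 had enough UMIs to be tested. Of these, 12 had an unadjusted p under 0.05, where 6.72% of all 139693 pairs of a gene and a class had such a p. An adjusted p under 0.05 was found in 0 (edgeR's quasi-likelihood test with Benjamini-Hochberg adjustment over all genes of the class). DESeq2 also called 0. With the library number as a block, 2 members were called, Irf5 and Irf8 in granulocyte and monocyte precursors. In that class the block fit called 845 of 10921 genes, against 47 in the main fit, and the labels do not say that the number marks an experiment. The lowest adjusted p of the main fit was 0.264 by edgeR's test, for Irf5 in Vpreb1+ B-cell precursors. Few genes of any kind passed in these comparisons of 2 libraries with 2. In HSPCs, 0 of 7 members tested were called against 0.254% of all genes tested, and in granulocyte and monocyte precursors 0 of 7 against 0.43%. For immature neutrophils it was 0 of 7 against 0.433%, for mature neutrophils 0 of 6 against 0.215% and for classical monocytes 0 of 8 against 0.51%. For conventional dendritic cells it was 0 of 8 against 0.185%, and for plasmacytoid dendritic cells 0 of 8 against 0.249%. In the B lineage it was 0 of 8 against 0.648% in Vpreb1+ precursors, 0 of 7 against 0.443% in cycling precursors, 0 of 8 against 0.413% in Rag1+ precursors, 0 of 8 against 0.2% in Ms4a1+ B cells and 0 of 8 against 0.193% in Ighd+ B cells. In the remaining classes it was 0 of 8 against 0.172% in T cells, 0 of 6 against 0.0809% in NK cells, 0 of 5 against 0.316% in early erythroid cells, 0 of 7 against 0.0472% in late erythroid cells, 0 of 6 against 0.107% in basophils and 0 of 1 against 0.238% in stromal cells. A share of 0 among so few genes is near every one of these background shares.

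In 19 of the 123 pairs (15.4%) both TLR9-/- libraries were above both WT libraries, where 18.4% of all genes and classes together were above. In 23 pairs (18.7%) both were below, where 18.3% of all were below. The libraries overlapped in the other 81 pairs. As a family the IRF genes were thus separated by genotype about as often as genes at large, and the values below describe single members. Levels in these comparisons are CPM after TMM scaling, and log2 fold changes are TLR9-/- over WT, so that a positive value is higher in TLR9-/- cells.

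**Figure D3:**
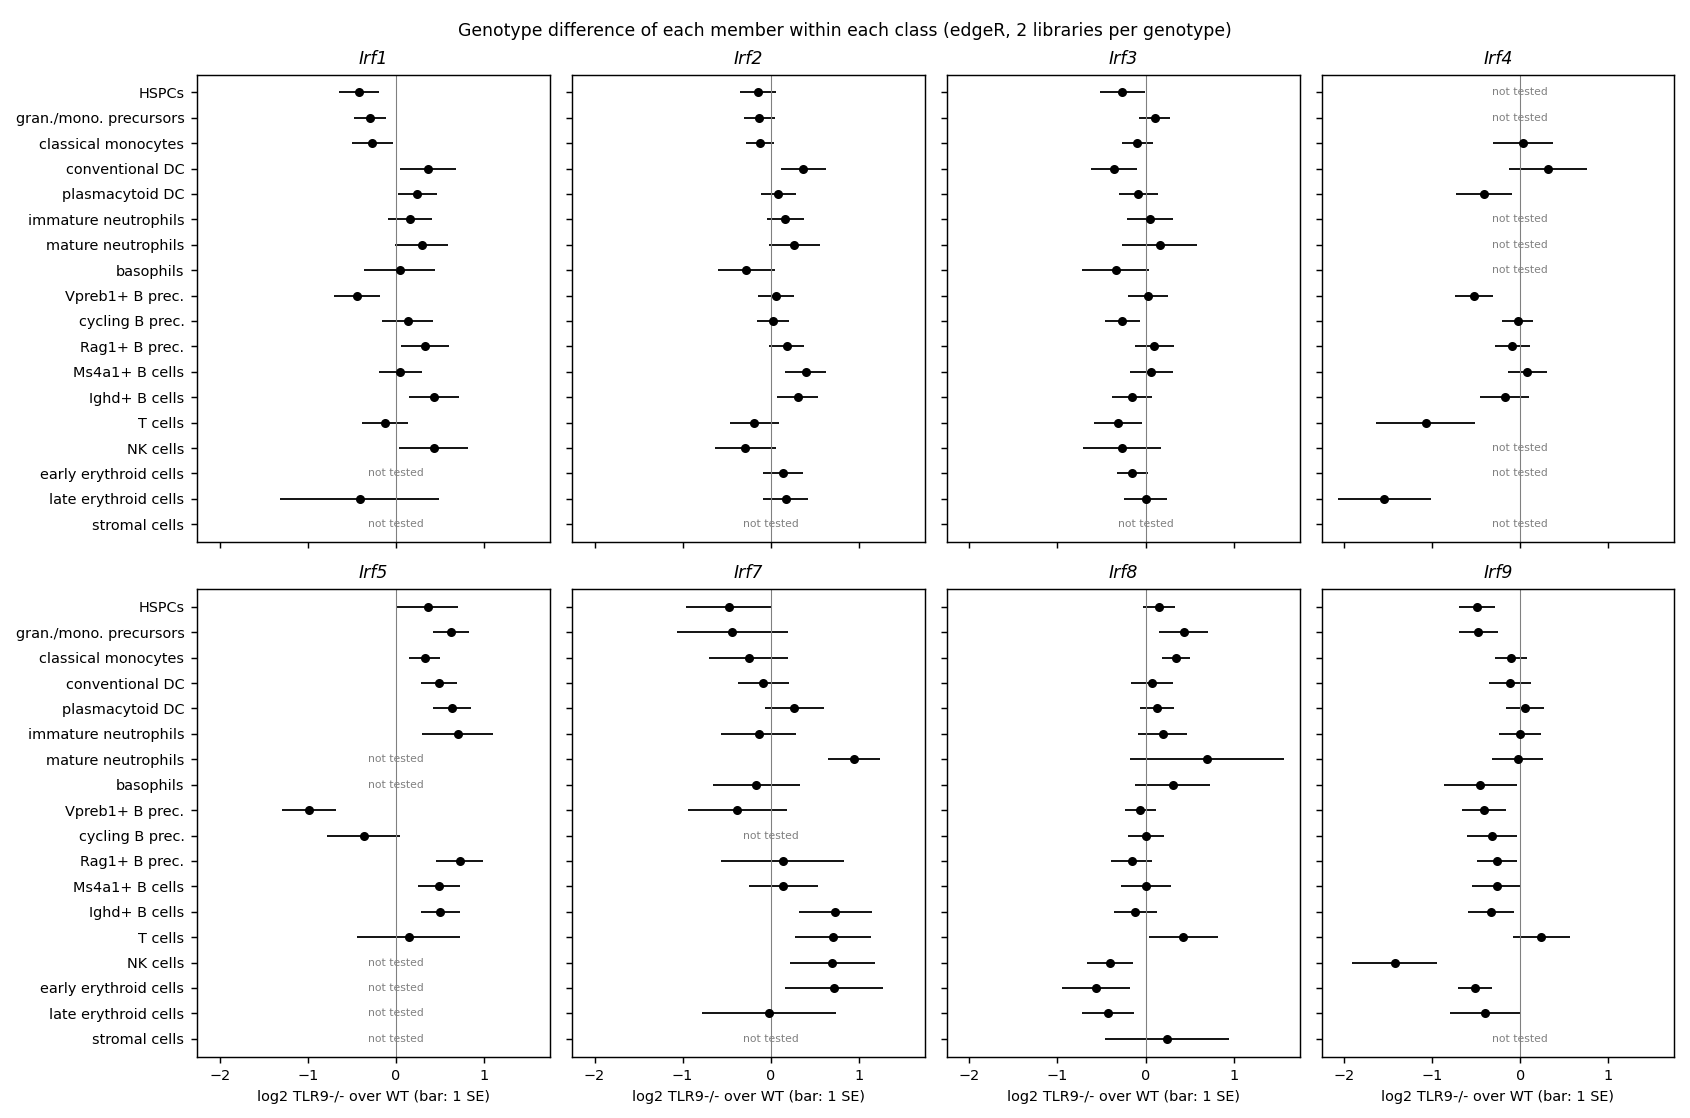
Log2 fold change of TLR9-/- over WT for each of the 8 genes (panels) in each class (vertical axis), with a bar of 1 standard error from edgeR, n = 2 libraries per genotype. No value passed the threshold. Irf5 lies right of 0 in 10 of 12 classes tested and Irf9 left of 0 in 15 of 17.

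Irf5 was the member whose libraries were most often apart. Of the 12 classes in which Irf5 was tested, both TLR9-/- libraries were above both WT libraries in 8, and both were below in 1, Vpreb1+ B-cell precursors. Of all genes and classes together, 18.4% were above. TLR9-/- library 2 was the highest library for Irf5 in 9 of the 12 classes. The median log2 fold change over the 12 classes was 0.49. An unadjusted p under 0.05 was found in 6 of the 12, where 6.72% of all pairs of a gene and a class had such a p. The classes hold cells of the same 4 mice, so that for any member counts over classes are not counts of independent comparisons. In plasmacytoid dendritic cells Irf5 was at 77.3 and 109 CPM for TLR9-/- and at 60.3 and 60.3 CPM for WT. This was a difference of 0.63 on the log2 scale (standard error 0.22, adjusted p = 0.608 by edgeR's quasi-likelihood test with Benjamini-Hochberg adjustment). In conventional dendritic cells the values were 115 and 109 against 80.8 and 78.9 CPM (log2 fold change 0.49, standard error 0.21). Both dendritic cell classes had higher Irf5 in each TLR9-/- library, and the WT libraries lay close together.

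In Rag1+ B-cell precursors Irf5 was at 40.1 and 51.5 CPM in TLR9-/- and 27.4 and 27.5 CPM in WT libraries, a log2 difference of 0.72 (standard error 0.27). Ms4a1+ B cells had 105 and 143 against 83.8 and 90.9 CPM, and Ighd+ B cells had 108 and 124 against 80.3 and 84.2 CPM. Classical monocytes had 140 and 176 against 131 and 121 CPM, a log2 fold change of 0.33 (standard error 0.17). The groups did not overlap in these 4 classes. In granulocyte and monocyte precursors, where it was low, the values were 15.1 and 15.1 against 11.3 and 8.71 CPM. The libraries held Ly6c2+ and Elane+ precursors, which differ in Irf5, in different proportions, and the part of this mix in these values was not tested. Vpreb1+ B-cell precursors went the other way, with 10.5 and 16.6 CPM in TLR9-/- and 22.2 and 28.3 CPM in WT libraries, a log2 difference of −0.99 (standard error 0.30). This class joined a cluster led by Vpreb1, of 236, 83, 379 and 329 cells in TLR9-/- libraries 1 and 2 and WT libraries 1 and 2, and a cluster led by Igll1, of 247, 74, 226 and 214 cells. Irf5 was at 32.5, 39.7, 53.5 and 66.2 CPM in the first and at 5.44, 9.12, 7.83 and 13.4 CPM in the second, before TMM scaling, so that the direction held in the first cluster and the libraries overlapped in the second. Left out in turn, WT library 1 and WT library 2 gave a median of 0.46 and 0.41 for Irf5, with 10 and 9 of 12 classes positive. No such median was taken without TLR9-/- library 2, the highest library for Irf5 in 9 of 12 classes.

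**Figure D4:**
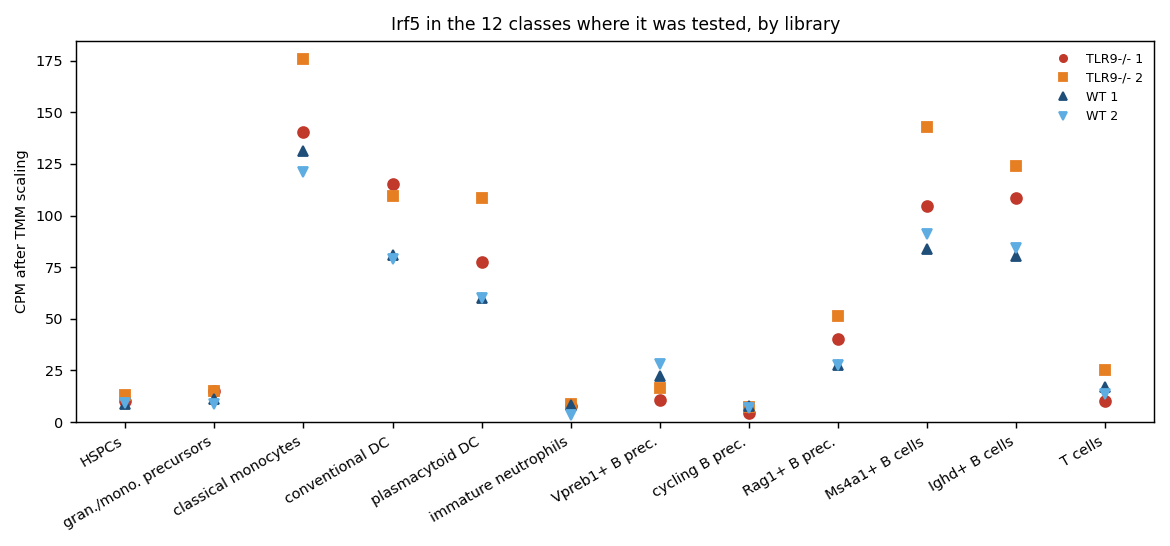
Irf5 in the 12 classes in which it was tested, in CPM after TMM scaling on a linear axis from 0, with 1 symbol per library. Both TLR9-/- libraries lie above both WT libraries in 8 classes, among them both dendritic cell classes, and below them in Vpreb1+ precursors.

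Irf7 differed more between the WT libraries than between the genotypes. WT library 1 was above WT library 2 in 16 of 16 classes tested, and WT library 2 was the lowest library in 15. In classical monocytes Irf7 was at 42.7 and 78.8 CPM for TLR9-/- and at 110 and 34.3 CPM in WT libraries 1 and 2. The TLR9-/- libraries thus lay between the WT libraries, and the log2 fold change was −0.25 (standard error 0.45). Without WT library 1 it was 0.82, and over the 16 classes the number with a positive value went from 8 to 16 and the median from 0.06 to 1.04. Without WT library 2, 4 of 16 were positive and the median was −0.43. In early erythroid cells the log2 fold change of Irf7 was 0.72 with all libraries and 1.67 without WT library 1, which then passed the threshold (adjusted p = 0.0120 by edgeR's quasi-likelihood test, in a range from 0.0120 to 1.00 over the 9 alternatives). In plasmacytoid dendritic cells it was 0.27 with all libraries and 1.10 without WT library 1 (adjusted p = 0.0671 by the same test).

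The direction of Irf7 therefore turned on which WT library stood for WT, and WT library 1 was also the library with the highest interferon-stimulated genes. In classical monocytes the 25 interferon-stimulated genes summed to 1894 and 2647 CPM in the TLR9-/- libraries, 4668 CPM in WT library 1 and 1912 CPM in WT library 2. Whether this had a part in the Irf7 values was not tested. Irf7 was above in both TLR9-/- libraries in 3 of 16 classes, near the 18.4% of all genes and classes together. These were mature neutrophils, T cells and NK cells. In mature neutrophils it was at 82.0 and 79.1 CPM in TLR9-/- and at 42.5 and 41.04 CPM in WT libraries, and the groups did not overlap. On the log2 scale this was 0.95 (standard error 0.30, adjusted p = 1.00 by edgeR's quasi-likelihood test with Benjamini-Hochberg adjustment), and it stayed between 0.93 and 1.00 with any 1 library left out. This class joined a cluster led by Mmp8, of 209, 809, 256 and 402 cells in TLR9-/- libraries 1 and 2 and WT libraries 1 and 2, and a cluster led by Il1b, of 626, 326, 107 and 437 cells, so that the libraries held them in different proportions. Before TMM scaling, Irf7 was at 34.7 and 52.3 against 25.7 and 29.6 CPM in the first and at 124 and 161 against 98.4 and 65.5 CPM in the second. In both clusters each TLR9-/- library was above both WT libraries.

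**Figure D5:**
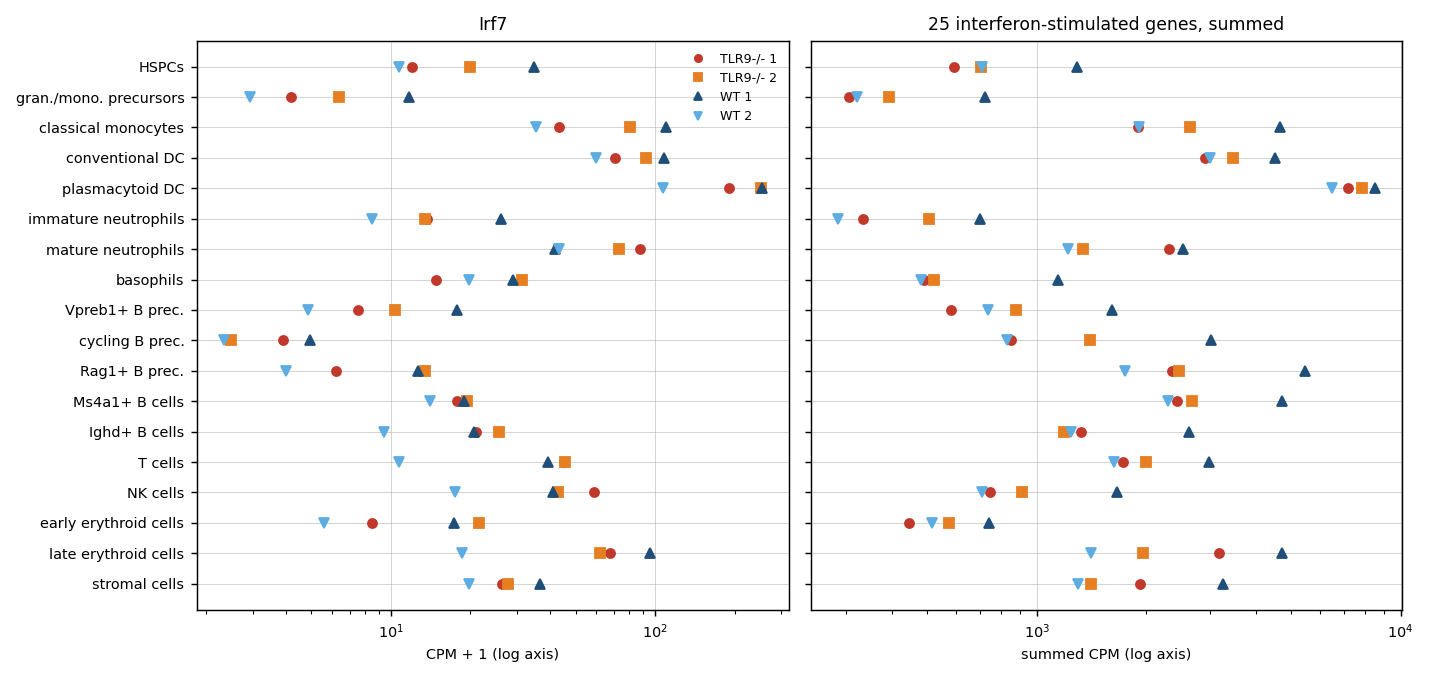
Irf7 as CPM + 1 (left) and the summed CPM of 25 interferon-stimulated genes (right), both on log axes, in 18 classes (vertical axis) with 1 symbol per library. WT library 1 (dark triangle) is highest for the summed genes in all 18 classes, and WT library 2 (light triangle) is lowest or near lowest for Irf7.

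Irf9 was positive in 2 of 17 classes. Both TLR9-/- libraries were below both WT libraries in 6 and above in 0, where 18.3% of all genes and classes together were below. In NK cells Irf9 was at 23.5 and 21.7 CPM in TLR9-/- and at 60.7 and 64.3 CPM in WT libraries, from 40 UMIs in all. This log2 fold change, −1.43, had a wide error (standard error 0.48, adjusted p = 0.880 by edgeR's quasi-likelihood test with Benjamini-Hochberg adjustment). In early erythroid cells it was at 20.7 and 24.8 against 35.3 and 31.2 CPM, and in HSPCs at 33.9 and 36.4 against 55.6 and 43.7 CPM. TLR9-/- libraries were lower in these 3 classes with each WT library. WT library 1 was the highest library for Irf9 in 11 of 17 classes, and TLR9-/- library 1 was the lowest in 13. Without WT library 1 the median log2 fold change of Irf9 went from −0.32 to −0.02, with 8 of 17 classes positive. No such median was taken without TLR9-/- library 1.

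Irf8 was below in both TLR9-/- libraries in 3 of 18 classes, Vpreb1+ precursors, NK cells and late erythroid cells, and above in 1. Among all genes and classes together, 18.3% were below and 18.4% above. The class above was classical monocytes, with 522 and 514 CPM against 388 and 429 CPM. On the log2 scale Irf8 was higher by 0.34 (standard error 0.16, adjusted p = 0.715 by edgeR's quasi-likelihood test with Benjamini-Hochberg adjustment). In plasmacytoid dendritic cells the values, 2513 and 3264 against 2353 and 2934 CPM, overlapped and differed on the log2 scale by 0.13 (standard error 0.19). In conventional dendritic cells it was 0.07 (standard error 0.24). Where Irf8 was most abundant, the genotypes thus differed by less than the spread between libraries. In granulocyte and monocyte precursors WT library 2 was at 128 CPM and the other 3 libraries were between 237 and 264 CPM, which gave a log2 fold change of 0.43, and of 0.98 and 0.03 without WT library 1 and without WT library 2. In the finer clustering WT library 2 held 128 Ly6c2+ precursors, which are high in Irf8, and 349 Elane+ precursors. The part of this mix in the Irf8 value was not tested. In mature neutrophils Irf8 was at 64.7, 7.12, 31.9 and 13.9 CPM in TLR9-/- libraries 1 and 2 and WT libraries 1 and 2, and the log2 fold change of 0.70 was −0.88 with marked doublets left out. It was −1.41 without TLR9-/- library 1 and 1.70 without TLR9-/- library 2, the only setting in which it passed the threshold (adjusted p = 0.0076 by edgeR's quasi-likelihood test, in a range from 0.0076 to 1.00 over the 9 alternatives). The 16 markers of plasmacytoid dendritic cells summed there to 561, 250, 506 and 285 CPM in the same order of libraries, with 1 of 16 below in TLR9-/- libraries and none at 0 in every library. Of this sum, Plac8 alone was at 250, 198, 275 and 193 CPM. The 15 markers of conventional dendritic cells summed to 1270, 589, 877 and 657 CPM. Cst3 alone made up 1046, 526, 726 and 540 CPM of this, and 3 of the 15 were at 0 in every library. Flt3, Batf3 and Zbtb46, unlike Irf8, were higher in TLR9-/- library 2 than in TLR9-/- library 1. The 13 markers of classical monocytes summed to 7796, 10831, 8282 and 7871 CPM. Irf8 and both sums of dendritic cell markers were highest in TLR9-/- library 1 and lowest in TLR9-/- library 2. The monocyte sum was highest in TLR9-/- library 2, but Lyz2 alone made up 5671, 8220, 5767 and 6125 CPM of it. Lyz2, Lgals3 and Ly6c2 were higher in TLR9-/- library 2 than in TLR9-/- library 1. Every other monocyte marker was, like Irf8, higher in TLR9-/- library 1 than in TLR9-/- library 2. Ccr2, for example, was at 33.8 and 11.9 CPM in TLR9-/- libraries 1 and 2. The part of other cell types in the Irf8 value was not tested.

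Irf4 differed little within the classes that express it. The log2 fold change was −0.03 (standard error 0.18) in cycling B-cell precursors, −0.09 (standard error 0.20) in Rag1+ precursors and 0.08 (standard error 0.22) in Ms4a1+ B cells. In the B-cell precursors the libraries were apart only in Vpreb1+ precursors, at 50.3 and 41.5 CPM in TLR9-/- and 60.1 and 73.0 CPM in WT libraries. This was a log2 difference of −0.52 (standard error 0.21, adjusted p = 0.390 by edgeR's quasi-likelihood test with Benjamini-Hochberg adjustment). As given above for Irf5, this class joined a cluster led by Vpreb1 and a cluster led by Igll1, which the libraries held in different proportions. The part of this mix in the Irf4 value was not tested. The largest differences of Irf4 were in classes where it was close to the floor. In late erythroid cells it was at 3.22 and 3.68 against 14.5 and 6.23 CPM, a log2 fold change of −1.54 (standard error 0.53), and it passed only without WT library 2 (−2.04, adjusted p = 0.0393 by edgeR's quasi-likelihood test, in a range from 0.0393 to 1.00 over the 8 alternatives). In T cells it was at 8.57 and 5.77 against 14.7 and 16.7 CPM, a log2 fold change of −1.08 (standard error 0.57). In both of these classes the sum of 31 markers of B lineage cells was also lower in both TLR9-/- libraries. In late erythroid cells these markers summed to 898 and 1015 CPM in TLR9-/- and 2351 and 1265 CPM in WT libraries. There 17 of 31 were below and 3 above in both TLR9-/- libraries. Of all genes tested in late erythroid cells, 15.8% were below and 15.9% above. In T cells the markers summed to 1875 and 2323 against 3782 and 5043 CPM, with 19 of 31 below and 0 above. Of all genes tested in T cells, 17.9% were below and 17.9% above. No marker of the list was at 0 in every library of either class, and the part of B lineage RNA in these Irf4 values was not tested.

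Irf1 and Irf2 had values of both signs over the classes. Irf1 was above in 1 and below in 3 of 16 classes, and Irf2 was above in 5 and below in 2 of 17. Irf3 was below in 5 and above in 0 of 17 classes, with log2 fold changes from −0.36 to 0.16. The shares of all genes and classes together were 18.4% above and 18.3% below. WT library 2 was the highest library for Irf3 in 13 of 17 classes, and the number of classes with a positive value went from 7 to 2 without WT library 1 (median −0.22) and to 10 without WT library 2 (median 0.12). In HSPCs, for example, Irf1 was at 25.4 and 24.99 CPM in TLR9-/- and at 37.8 and 30.2 CPM in WT libraries (log2 fold change −0.42, standard error 0.23). In Ms4a1+ B cells Irf2 was at 136 and 157 against 97.3 and 124 CPM (log2 fold change 0.40, standard error 0.23).

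Summed over all cells, 2 of 8 members had an unadjusted p under 0.05 by edgeR's quasi-likelihood test, where 2433 of 14194 genes had such a p. In this sum over all cells 0 of 8 members passed the threshold against 0.268% of all genes, whereas DESeq2 called 1, Irf4. In such a sum, fewer cells of a type and less RNA per cell cannot be told apart. Irf4 was at 21.2 and 12.1 CPM in TLR9-/- libraries and at 43.3 and 36.8 CPM in WT libraries, with no overlap. For comparison, TLR9-/- and WT libraries were apart in one direction or the other for 51.1% of all genes. The fitted value was −1.27 on the log2 scale (standard error 0.29, adjusted p = 0.151 by edgeR's quasi-likelihood test with Benjamini-Hochberg adjustment), and the adjusted p went from 0.00200 to 0.295 over the 9 alternatives. Without TLR9-/- library 1 it was −1.70 (adjusted p = 0.0498 by the same test) and without TLR9-/- library 2 it was −0.92.

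The B lineage classes held 78.5% and 68.9% of the Irf4 UMIs in TLR9-/- libraries and 82.4% and 85.1% in WT libraries. They include no class of plasma cells. B lineage cells were 29.3% and 24.3% of the cells in TLR9-/- libraries and 47.3% and 47.1% in WT libraries. Within the B lineage as a whole Irf4 was at 113 and 94.3 CPM against 123 and 121 CPM. The difference of Irf4 over all cells was thus larger than any within the 5 B lineage classes, where the log2 fold changes were between −0.52 and 0.08. The second member with an unadjusted p under 0.05 was Irf5, at 42.6 and 45.7 against 33.3 and 26.5 CPM, 0.56 higher on the log2 scale (standard error 0.17, adjusted p = 0.204 by edgeR's quasi-likelihood test). Classical monocytes, its highest class, made up 13.5% and 14.5% of TLR9-/- cells and 7.08% and 6.89% of WT cells. Irf7 over all cells was at 27.03 and 37.5 against 54.5 and 13.6 CPM, a log2 fold change of −0.07 that was 1.25 without WT library 1.

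Whether a genotype difference varied between lineages was tested with a genotype by lineage term over B lineage cells, classical monocytes and neutrophils. No member passed in any of the 3 contrasts. An unadjusted p under 0.05 was found for 5 of 24 values, and the share of all genes with such a p was not counted. Of 11974 genes 0.184% passed for monocytes minus B cells, 0.209% for neutrophils minus B cells and 0.159% for monocytes minus neutrophils. The lowest adjusted p was 0.462, for Irf7 in monocytes minus neutrophils (difference of log2 fold changes −0.69, standard error 0.24, edgeR's quasi-likelihood test with Benjamini-Hochberg adjustment). For Irf2 the same contrast gave −0.46 (standard error 0.17) and for Irf1 −0.63 (standard error 0.24).

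Genes that act with the IRFs were followed through 6 lists in the same fits. Of 268 pairs of an interferon-stimulated gene and a class, 1 (0.373%) passed the threshold and was lower in TLR9-/- cells, where 0.308% of all 139693 pairs of a gene and a class passed. None passed of 228 pairs for the sensors and adaptors upstream of IRF activation, of 170 for the interferon receptors and JAK-STAT, of 244 for targets of IRF1 and interferon gamma, of 187 for DNA-binding partners such as Spi1, Spib and Batf or of 2 for interferon genes. At an unadjusted p under 0.05 these lists had, in the same order, 39, 23, 14, 16, 19 and 1 pairs. For the interferon-stimulated genes this was 14.6%, where 6.72% of all pairs had such a p, and WT library 1 was the highest library for their sum in every class. DESeq2 called 2 pairs, of 1 interferon-stimulated gene in 2 classes.

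The gene that passed was Oasl2, which encodes a 2′-5′-oligoadenylate synthetase-like protein induced by interferon, in mature neutrophils. It had 9 and 6 UMIs in TLR9-/- libraries 1 and 2 and 43 and 94 UMIs in WT libraries 1 and 2. On the TMM scale this was 7.77 and 2.25 against 91.4 and 65.4 CPM, and both TLR9-/- libraries lay far below both WT libraries. The fitted value was −4.15 on the log2 scale (standard error 0.52, adjusted p = 0.0120 by edgeR's quasi-likelihood test with Benjamini-Hochberg adjustment). The call was lost without WT library 1 (−3.87, adjusted p = 0.434 by the same test) and without WT library 2 (−4.37, adjusted p = 0.129), in a range from 7.95e-17 to 0.434 over the 10 alternatives, while the size changed little. Oasl2 was negative in all 6 classes in which it was tested, with all libraries and without either WT library, whereas Isg15 was negative in 16 of 17 classes with all libraries but positive in 13 of 17 without WT library 1. For Oasl2 too WT library 1 was the highest library in 6 of 6 classes, and without it the median log2 fold change went from −2.31 to −1.61. Oasl2 (chromosome 5 of GRCm38, from 114896936 to 114912234) still kept its direction without WT library 1, where Isg15, and likewise Xaf1 and Ifi27l2a, mostly turned positive. These 3 genes were chosen after their values were seen, and no difference between them and Oasl2 was tested.

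Few UMIs of interferon alpha and beta genes were counted in these cells. Of the 20 interferon genes listed, 9 had a UMI in a kept cell. The Ifna genes, Ifnab and Ifnb1 together had 44 UMIs, in 4 cells over all libraries. A single plasmacytoid dendritic cell of WT library 1 held 41 of these UMIs, among a total of 2235, and had 0 Irf7 UMIs. Ifna1 had 18 and Ifna2 had 22 UMIs in WT library 1 and 0 in the other libraries, and Ifnb1 had 1 UMI in TLR9-/- library 2. Of the other interferon genes, Ifnk had 1 UMI in all, and Ifnz had 3 and 1 UMIs in TLR9-/- and 1 and 3 in WT libraries. Ifng, the product of T and NK cells, had 102 and 22 UMIs in TLR9-/- and 75 and 8 in WT libraries, which differ in depth. As the only interferon gene tested, Ifng had log2 fold changes of −0.11 over all cells, 1.47 in T cells and −1.53 in NK cells. Its unadjusted p by edgeR's quasi-likelihood test was under 0.05 in NK cells only. The WT library with the highest interferon-stimulated genes was also the only one with a cell holding more than 1 UMI of the interferon alpha and beta genes. Any link between these was not tested.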

How the data were processed

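BMNCs of 2 TLR9-/- and 2 WT mice, 1 library per mouse, were counted by the authors with Cell Ranger on mm10, and the deposited matrices hold raw UMI counts per gene and called cell. Group and library number were taken from the sample titles. By the paper's methods the mice were profiled in 2 experiments, each with 1 WT and 1 TLR9-/- mouse. The labels do not say that a number marks 1 of the 2 experiments. The p-values measure the spread between these mice only, in which mouse and experiment cannot be told apart. The members, gene lists and markers were chosen with earlier results of these data known.

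Cells with under 200 or over 10000 genes or over 10% mitochondrial UMIs were left out (the stated 0.10% was read as a fraction). With scanpy 1.11.5, 2000 variable genes without the members (Irf8 was the only one among them), 30 principal components, 15 neighbours and Leiden resolution 1 gave 28 clusters, and resolution 2 gave 44. Libraries were not batch-corrected. Class names were rebuilt from markers and may differ from the study's. Clusters with over 50% cells marked by Scrublet got no class (2.42 to 3.51% of the cells of a library). Nor did a cluster led by Igha and Jchain (0.259 to 2.07%), which had plasma cell markers beside Elane and Ctsg. Plasma cells were a class only at resolution 2, so the main classes and the B lineage hold no plasma cell class. Other marked cells stayed in, and leaving them out was an alternative. Scrublet marked 2.87, 4.71 and 3.79% of cells in TLR9-/- libraries 1 and 2 and WT library 1. In WT library 2 its own threshold marked 0.0112%, so the expected rate was used, which marked 7.12%.

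UMIs were summed per class and library where every library had at least 10 cells. The sums were tested with edgeR 4.0.16 (R 4.3.3; TMM, filterByExpr, quasi-likelihood test, Benjamini-Hochberg adjustment over all genes of a class, threshold 0.05), which was first tested on simulated data. Alternatives were DESeq2 1.42.0, no filter, a library-number block, each library left out, doublets left out, resolution 2 and cells thinned to 1000 UMIs. Named genes were the 8 members, the 3 genes closest to each over class means, listed pathway genes past the threshold, and Tlr9. Intervals of shares cover counting error only. Results of 1 further gene list are not reported here.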

Additional observations from a re-analysis of the deposited data

How the results depend on the processing

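The 123 comparisons of a member within a class gave 0 calls, and also 0 by DESeq2, without the filter, with doublets left out, with thinned cells and at resolution 2. With 1 library left out there were 0 to 1 calls, the lone library of its genotype being assumed to vary like the others. With the replicate block, the library number as a block, there were 2 calls, Irf5 (0.63, adjusted p = 0.0391 by edgeR's quasi-likelihood test) and Irf8 (0.50, adjusted p = 0.00414) in granulocyte and monocyte precursors, whose adjusted p went up to 1.00 over the 9 alternatives of each. Same-numbered libraries deviated together with a correlation of 0.0496 in mature neutrophils to 0.656 in late erythroid cells, but share only a number by the labels. Genes of any kind called, summed over classes, went from 430 to 1831 without the filter, 2452 with the block, 912 to 1132 with 1 library left out and 115 with thinned cells. Over all cells, members called went from 0 to 1 (Irf4) with DESeq2, without the filter and with the block, and were 0 to 1 with 1 library left out. Genes called there went from 38 to 851 with DESeq2, 605 without the filter, 1165 with the block, 58 to 88 with 1 library left out and 23 with thinned cells. Pathway pairs called went from 1 to 2 with DESeq2, 29 without the filter, 20 with the block and 2 to 44 with 1 library left out, alternatives chosen after seeing the data. Genes called between lineages went from 66 to 363 without the filter. The cause was not tested.

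Uncalled log2 fold changes changed sign in 140 of 1247 values. At least 1 value changed sign in 73 of 131 pairs of a member and a class, with all cells taken as a class. With thinned cells, Irf8 in conventional dendritic cells was −0.058, Irf7 in classical monocytes 0.022, Irf9 in T cells −0.80, and over all cells Irf1 was 0.17, Irf2 0.032 and Irf7 0.35. With doublets left out, Irf8 was −0.88 in mature neutrophils and 0.34 in early erythroid cells. With the block, Irf7 over all cells was 0.22. With 1 library left out, Irf8 went from −0.069 to 0.31 in plasmacytoid dendritic cells, from −0.20 to 0.44 in conventional dendritic cells and from −1.41 to 1.70 in mature neutrophils. Irf7 went from −0.22 to 1.10 in plasmacytoid dendritic cells, from −0.85 to 0.82 in classical monocytes, from −0.29 to 1.67 in early erythroid cells, from −1.15 to 0.62 in HSPCs and from −0.75 to 1.25 over all cells. Irf4 went from −0.21 to 0.042 in Rag1+ precursors and from −0.26 to 0.80 in conventional dendritic cells, Irf3 from −0.075 to 0.79 in mature neutrophils and Irf1 from −0.24 to 0.13 over all cells. Of the class levels, 30 of 136 at resolution 2 and 11 of 144 with doublets left out moved by more than 1 SD.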
